A study of Mus musculus with 6 samples.

Results

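Integrins, laminins and the other core genes of the basement membrane were examined in the head ectoderm of mouse embryos at day 9.5, the stage of the lens placode, a thickened patch of ectoderm from which the lens grows. Members were taken by gene symbol: integrin alpha and beta genes, laminin chain genes, and Bcam, Dag1, Nid1, Nid2, Hspg2 and Agrn. The named probes of the array covered 44 such genes among 19057 genes in all, and 22 of the 44 were tested, as were 9190 genes in all. A gene was tested when 3 or more of the 6 arrays gave one of its probes a detection p-value below 0.01. The symbol rule also takes in Itgb1bp1, Itgb1bp2, Itgb3bp and Itgbl1, which encode no integrin subunit and are described apart.

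The 6 Illumina bead arrays fall into 3 arrays of Pax6-/- tissue, labelled surface ectoderm, and 3 arrays of wild-type tissue, labelled lens placode. Both genotypes had a mixed FVB and 129 background and were taken at the same age, and the allele behind Pax6-/- is not described in the labels. Tissue was cut from frozen, eosin-stained sections by laser microdissection, and the protocol names the lens placode as the target for both genotypes. RNA from 3 embryos of each genotype was pooled and the pool amplified in triplicate, so the spread between arrays is that of amplification and hybridisation. Every p-value below therefore measures the spread of amplifications of 1 pool per genotype, and leaves out the variation among embryos. Genotype and the region captured cannot be told apart, nor can a smaller share of a cell type and less RNA per cell.

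Basement membranes are sheets of matrix under epithelia, built on a network of laminin trimers, each with an alpha, a beta and a gamma chain. Nidogens and the heparan sulfate proteoglycans perlecan and agrin bind to laminin and to type IV collagen. Cells hold the sheet through integrins, which are alpha-beta pairs, and through dystroglycan and the Lutheran protein Bcam. In the early eye the basement membranes of the surface ectoderm and of the optic vesicle lie against each other where the lens placode forms.

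Of the 22 tested members, 1 was higher and 1 was lower in Pax6-/- ectoderm (limma, adjusted p under 0.05 over all tested genes). The laminin receptor gene Bcam was 3.72-fold higher and the integrin beta gene Itgb8 was lower. For Itgb8, 2 of the 3 Pax6-/- arrays were not above background. With each Pax6-/- array at no less than its lowest detected signal it was 2.55-fold lower. That figure carries no array error and depends on the background correction. None of the 5 tested laminin chains passed, and none of the 4 linkers and proteoglycans. Calls of that kind were made for 3.28% of all tested genes, 1.51% higher and 1.76% lower, and 2 of 22 members (9.09%) is too small a count to be read against that share. The median change of the members was -0.12 on the log2 scale, Pax6-/- minus wild type, beside -0.01 for all tested genes. The median absolute change was 0.28 for members and 0.25 for all genes.

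Promoters of the genes that passed are shown so that their sequence can be read beside the values. They run from 250 bases before to 50 after the annotated start, 5′ to 3′ on the gene's strand (RefSeq, GRCm38.p6). Capitals mark matches on either strand to CACCC, the core bound by Krüppel-like factors, and to TAAT, the core bound by many homeodomains.
Bcam, chr7:19770483-19770782, minus strand: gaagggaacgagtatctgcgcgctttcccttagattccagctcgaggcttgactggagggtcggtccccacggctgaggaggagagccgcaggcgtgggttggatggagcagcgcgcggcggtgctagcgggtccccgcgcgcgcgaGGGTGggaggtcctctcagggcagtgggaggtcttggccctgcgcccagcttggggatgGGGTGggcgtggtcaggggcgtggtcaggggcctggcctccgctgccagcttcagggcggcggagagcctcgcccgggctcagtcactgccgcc
Itgb8, chr12:119238227-119238526, minus strand: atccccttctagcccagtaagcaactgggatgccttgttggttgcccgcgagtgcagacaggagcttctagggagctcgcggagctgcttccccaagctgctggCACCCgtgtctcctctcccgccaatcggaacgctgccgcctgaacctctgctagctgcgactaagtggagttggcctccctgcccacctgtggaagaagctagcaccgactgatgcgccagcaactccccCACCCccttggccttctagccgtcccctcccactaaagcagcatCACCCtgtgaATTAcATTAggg
The Bcam window held 2 CACCC matches and 0 TAAT matches, with 71.0% G and C. The Itgb8 window held 3 CACCC and 2 TAAT matches, with 60.7% G and C. Among all 32851 promoter windows of the same length, 57.5% held CACCC and 58.0% held TAAT, and the median G and C content was 52.7%. Such short matches are thus common and describe these letters only.

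The laminin chains, the ligands of this system, did not pass in any case, and the genotypes overlapped for each. Lamb1, the beta chain of most embryonic laminins, had log2 intensities of 10.04, 10.16 and 10.03 on the Pax6-/- arrays, against 10.07, 10.31 and 10.19 on the wild-type arrays. Its change was -0.11, with a 95% interval of -0.39 to 0.17. That interval is the narrowest among the laminin chains.

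Lama1 encodes the alpha chain of the first embryonic laminin. Its log2 intensities were 7.69, 7.37 and 7.39 in Pax6-/- ectoderm, against 8.06, 7.58 and 7.70 in wild type, a change of -0.29 (95% interval -0.88 to 0.29). Lama5 encodes the alpha chain that replaces it in many epithelia and is the chain bound by Bcam. Its values were 8.35, 8.38 and 8.11 in Pax6-/- and 8.50, 8.37 and 8.04 in wild type, a change of -0.02 (95% interval -0.52 to 0.47). For Lama5 the arrays of a genotype lay further apart than the genotype means.

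Lamc1, the gamma chain shared by most laminins, had 8.33, 7.90 and 7.89 in Pax6-/- and 7.41, 7.56 and 8.37 in wild type, so that wild-type array 3 exceeded every Pax6-/- array. Its change was 0.26 (95% interval -0.40 to 0.93), and a further Lamc1 probe stood at 0.07 (SE 0.28). Lamb2, a beta chain of muscle, kidney and neural basement membranes, changed by -0.08 (95% interval -0.65 to 0.49). Across the 5 chains the intervals ran from -0.88 to 0.93, so a 2-fold change in either direction lay outside each of them. Those intervals cover amplification and array error only.

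The nidogens and proteoglycans, which join laminin to collagen, likewise did not pass. Agrn, which encodes the proteoglycan agrin, had log2 intensities of 11.98, 12.13 and 11.86 in Pax6-/- and 12.39, 12.19 and 12.05 in wild type (change -0.22, 95% interval -0.45 to 0.01). Hspg2, which encodes perlecan, had 10.98, 11.25 and 11.47 in Pax6-/- and 11.53, 11.57 and 11.40 in wild type. Pax6-/- array 3 lay within the wild-type range for Hspg2. Its change was -0.27 (95% interval -0.54 to 0.00), and a further probe gave -0.21 (SE 0.13). For both proteoglycans the genotypes overlapped and 0 lay just inside the upper bound.

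Nidogen genes had signs that differed from each other. Nid1 stood at 7.03, 7.20 and 7.15 in Pax6-/- and 7.03, 6.69 and 6.82 in wild type (change 0.28, 95% interval -0.35 to 0.91), while its further probe stood at -0.13 (SE 0.39). Nid2 ranged more widely, with 6.65, 6.24 and 7.59 in Pax6-/- and 7.09, 7.42 and 6.90 in wild type (change -0.31, 95% interval -1.15 to 0.52). The genotypes overlapped for both nidogens.

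**Figure D1:**
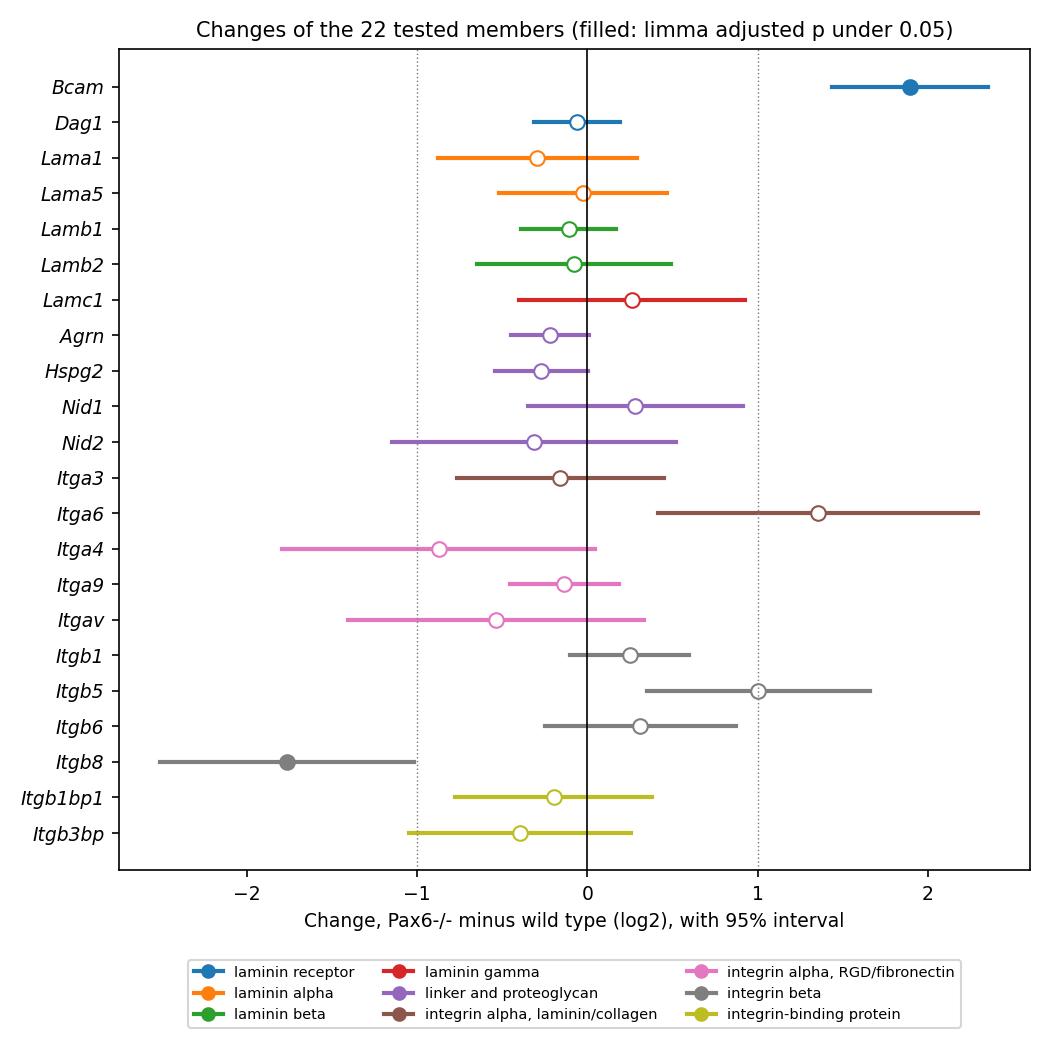
Change of each tested member, Pax6-/- minus wild type, on the log2 scale (points) with its 95% interval (bars), coloured by role. Filled points passed the limma test: Bcam at 1.90 and Itgb8 at -1.76. Dotted lines mark a 2-fold change, and the laminin intervals lie between them.

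Bcam was the member with the highest change. It encodes the Lutheran glycoprotein, a receptor for laminins that contain the Lama5 chain, found on basal epithelial cells and, in humans, on red blood cells. Its raw intensities were 1113, 1190 and 1065 on the Pax6-/- arrays, against 509, 368 and 349 on the wild-type arrays. After normalisation these were log2 intensities of 9.95, 10.17 and 9.88 in Pax6-/- and 8.49, 8.02 and 7.81 in wild type. The lowest Pax6-/- array lay well above the highest wild-type array.

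The Bcam change was 1.90 (SE 0.21, limma adjusted p = 0.000846), as a fold with a 95% interval of 2.71-fold to 5.12-fold. Within slide 1 it was 1.88 and within slide 2, with 1 array per genotype, 1.93. Slides here and below are read from the array codes in the column headers, which do not name them as slides. The call held in each of the 17 alternatives that gave a test (change 1.52 to 2.09, limma adjusted p at most 0.0256). The value rests on 1 probe, since the other 2 Bcam probes were detected on 0 arrays.

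Between the genotypes, erythroid markers had higher values in Pax6-/-, as Bcam did, while surface ectoderm markers were mixed. All 5 tested genes of an erythroid list of 10 had positive changes and 3 passed, the embryonic and adult globin genes Hba-a1, Hbb-bh1 and Hbb-y. The summed normalised intensity of the 5 tested genes was 4528 to 5003 on the Pax6-/- arrays against 2171 to 2517 on the wild-type arrays. Of the erythroid regulators, Gata1 was detected on 0 arrays and Klf1 on 1 array. Of 10 surface ectoderm genes, Krt14, Perp and Trp63 were higher and 0 were lower, with the basal keratin Krt14 at 2.80 (SE 0.30) and detected on 2 wild-type arrays. The other 7 did not pass, among them the basal keratin Krt5 at -0.39 (SE 0.34), Tfap2a at -0.49 (SE 0.21), Epcam at -0.33 (SE 0.13) and Cdh1 at -0.22 (SE 0.06). The list had 5 positive and 5 negative changes with a median of 0.02. Its summed intensity was 13603 to 14063 in Pax6-/- and 14044 to 14727 in wild type. Cdh1, the brightest gene of the list, makes up much of that sum. The part of either cell type in the Bcam change was not tested.

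Dag1 encodes dystroglycan, the other laminin receptor of the members that is no integrin. Its log2 intensities were 10.93, 11.13 and 10.86 in Pax6-/- and 11.14, 11.07 and 10.89 in wild type. The change was -0.06 (95% interval -0.31 to 0.19), and a further probe gave -0.07 (SE 0.20). A change of the size seen for Bcam lay outside the Dag1 interval.

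**Figure D2:**
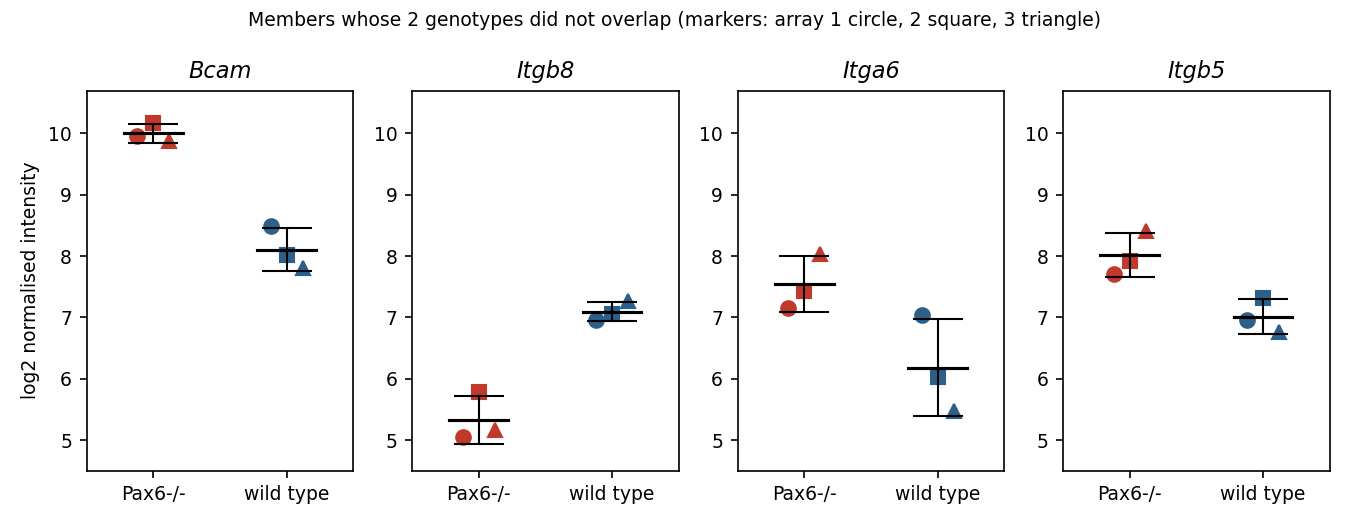
Normalised log2 intensity on each array (points, shaped by array number) for the 4 members whose genotypes did not overlap, with the mean (long line) and SD (whiskers, n = 3 arrays). Bcam lies between 9.88 and 10.17 in Pax6-/- and between 7.81 and 8.49 in wild type, and Itgb8 lies lower in Pax6-/-.

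Among integrin genes, 25 subunits were on the array and 9 were tested. Only Itgb8 of these passed. Its subunit pairs with the alpha-v subunit, binds latent TGF-beta and is known for roles in neuroepithelium and vascular development of the brain. Raw intensities were 140, 181 and 170 on the Pax6-/- arrays, against 259, 241 and 279 on the wild-type arrays. Normalised log2 intensities were 5.05, 5.78 and 5.17 in Pax6-/- and 6.96, 7.05 and 7.27 in wild type, so the highest Pax6-/- array lay below the lowest wild-type array.

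The probe was detected on 1 of 3 Pax6-/- arrays and on all 3 wild-type arrays, so it passed the detection filter through wild type. The fitted Itgb8 change was -1.76 (SE 0.34, limma adjusted p = 0.0171), in part against values that were not above background. With each Pax6-/- array at no less than its lowest detected signal, the difference was -1.35, or 2.55-fold lower. This floor allows for signal below detection but not for array error, and it holds for 1 background correction only. A further probe, detected on 0 Pax6-/- arrays and on 3 wild-type arrays, had mean log2 intensities of 4.99 in Pax6-/- and 6.41 in wild type. That probe was 1.59-fold lower with the same floor (limma adjusted p = 0.0552 for its fitted change, in a fit of all kept probes). It was kept only through its wild-type arrays, so its lower Pax6-/- values are no separate support for the call. The remaining Itgb8 probe was detected on 0 arrays of either genotype.

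The Itgb8 change was -1.64 within slide 1 and -2.01 within slide 2. It no longer passed without Pax6-/- array 1 or 3 or wild-type array 2 or 3 (limma adjusted p 0.0537 to 0.0684), on slide 1 alone (0.166) and with no detection filter (0.0558). Near the detection limit the size depends on the background: the change was -0.69 without background correction and -2.39 in the authors' normalised table. Of the optic vesicle and neural tube list, 6 of 10 genes were tested, all with positive changes. Only Zic1 of these passed (1.83, SE 0.28), Mitf stood at 0.003 (SE 0.19), and Lhx2 was detected on 0 wild-type arrays. The summed intensity of the 6 genes was 1219 to 1740 in Pax6-/- and 795 to 1000 in wild type. The part of that tissue in the Itgb8 change was not tested.

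Itgav encodes the alpha-v subunit, the partner of the Itgb5, Itgb6 and Itgb8 products. Its log2 intensities were 7.45, 6.03 and 7.39 in Pax6-/- and 7.23, 7.53 and 7.74 in wild type (change -0.54, 95% interval -1.41 to 0.33). Pax6-/- array 2 stood apart from the other Pax6-/- arrays, and a dimmer Itgav probe had the opposite sign at 0.89 (SE 0.44). No direction can be given for Itgav.

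The 3 further beta genes that were tested had positive changes and did not pass. Itgb5, a vitronectin-receptor subunit, had 7.71, 7.93 and 8.42 in Pax6-/- against 6.96, 7.32 and 6.76 in wild type. The genotypes did not overlap, but the change of 1.00 (SE 0.30) had a limma adjusted p = 0.106, and it was 1.31 on slide 1 and 0.39 on slide 2. Itgb6, an epithelial subunit that activates latent TGF-beta with alpha-v, changed by 0.31 (95% interval -0.25 to 0.87). Itgb1, the beta subunit of most matrix-binding integrins, had 10.04, 9.60 and 9.75 in Pax6-/- and 9.45, 9.63 and 9.56 in wild type (change 0.25, 95% interval -0.10 to 0.60).

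The alpha subunits of laminin receptors, Itga3 and Itga6, differed in their values. Itga6 pairs with the Itgb1 or Itgb4 product and, with the Itgb4 product, anchors hemidesmosomes. Its log2 intensities were 7.15, 7.43 and 8.04 in Pax6-/- against 7.05, 6.02 and 5.48 in wild type, where it was detected on 2 of 3 arrays. The genotypes did not overlap, but wild-type array 1 lay close to the lowest Pax6-/- array.

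The Itga6 change of 1.36 (SE 0.43) did not pass (limma adjusted p = 0.127), and a further probe stood at 1.08 (SE 0.39). With the mean of both kept probes in place of the brighter one, Itga6 was higher at 1.22 (SE 0.28, limma adjusted p = 0.0422). Over its tested alternatives the limma adjusted p ran from 0.0422 to 0.312, and the change was 0.64 without background correction. Itga3, which pairs with the Itgb1 product, had 8.67, 8.87 and 9.76 in Pax6-/- and 8.91, 9.51 and 9.36 in wild type (change -0.16, 95% interval -0.77 to 0.45). The Itga3 arrays overlapped throughout.

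Itga9 and Itga4 encode receptors for fibronectin splice forms, tenascin-C or vascular adhesion proteins. Itga9, a tenascin-C receptor subunit, had 10.46, 10.45 and 10.91 in Pax6-/- and 10.89, 10.66 and 10.68 in wild type (change -0.13, 95% interval -0.45 to 0.18). Its ligand gene Tnc was far lower, with 7.54, 6.24 and 5.27 in Pax6-/- against 10.17, 9.90 and 9.74 in wild type. Itga4 was near the detection limit, detected on 1 Pax6-/- array and 3 wild-type arrays. It stood at 5.87, 4.97 and 4.85 in Pax6-/- and 5.94, 5.64 and 6.73 in wild type (change -0.87, 95% interval -1.79 to 0.05), with -1.43 on slide 1 and 0.24 on slide 2.

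Itgb1bp1 and Itgb3bp, named for the integrin tails they bind, did not pass. Itgb1bp1, which encodes an inhibitor of integrin activation, changed by -0.20 (95% interval -0.78 to 0.38) with a further probe at -0.21 (SE 0.26). Itgb3bp, which also encodes a centromere protein, changed by -0.40 (95% interval -1.05 to 0.26). In both genes 1 Pax6-/- array was the lowest of all 6.

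**Figure D3:**
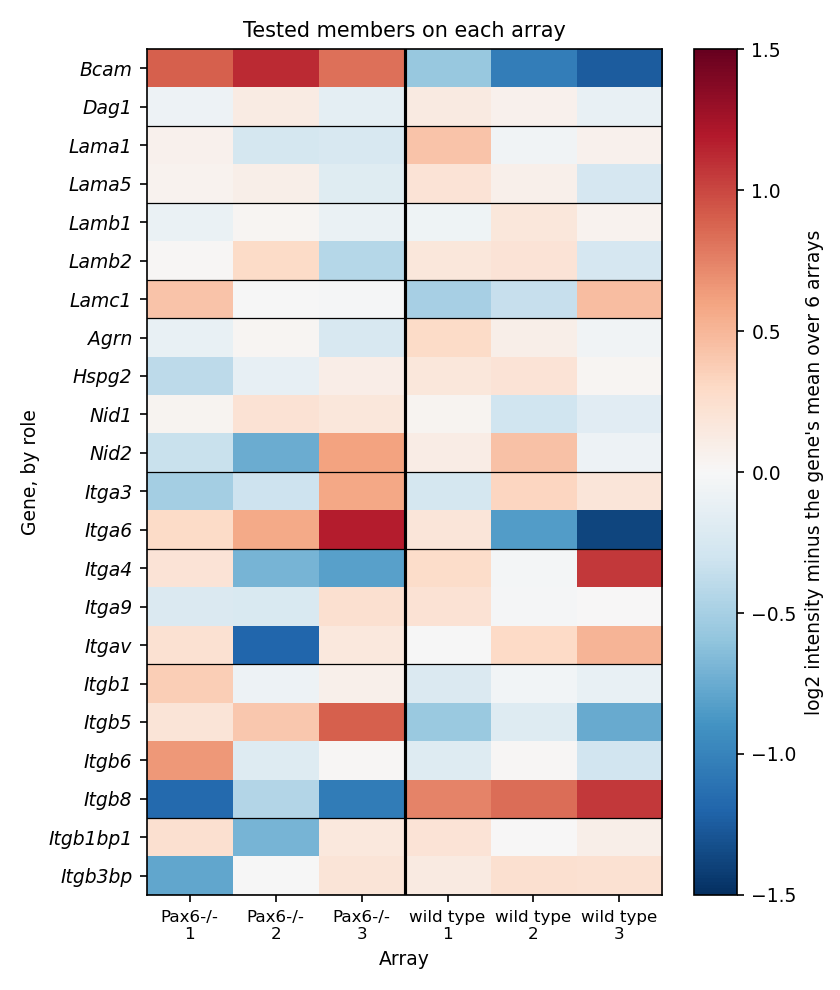
Normalised log2 intensity of each tested member on each array, minus the gene's mean over the 6 arrays (colour), with genes grouped by role and Pax6-/- arrays left of the line. Bcam is high and Itgb8 low on all 3 Pax6-/- arrays, while most other genes vary within a genotype as much as between them.

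Over all members, 4 of 22 genes (18.2%) had no overlap between Pax6-/- and wild-type arrays, namely Bcam, Itgb8, Itga6 and Itgb5. The same held for 22.8% of all tested genes, so that share is near the background. At an unadjusted p under 0.05, 4 members (18.2%) and 16.9% of all genes differed. For 14 of the 20 members that did not pass, the 95% interval lay within a 2-fold change in either direction. The intervals of the other 6 (Itga6, Itga4, Itgav, Itgb5, Nid2 and Itgb3bp) reached beyond 2-fold. Of the 12 further kept probes, each of a different gene, 10 had the sign of the probe used, with Itgav and Nid1 as the exceptions.

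By the number that opens each array code, read here as its slide, the arrays were spread over 2 slides. Slide 1 held 2 arrays per genotype and slide 2 held 1. Changes within the slides had the same sign for 18 of 22 members, and across all tested genes they correlated at 0.388 over genes, which are not independent replicates. The 4 members with differing signs were Itga3, Itga4, Lama1 and Itgb1bp1. None of them passed the test.

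**Figure D4:**
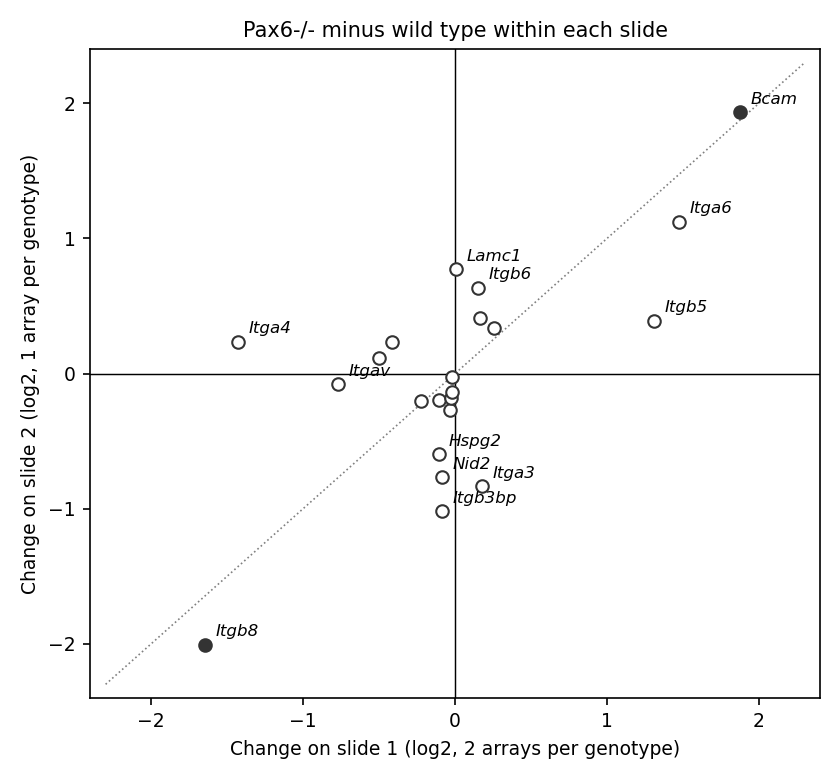
Change of each tested member within slide 1 (horizontal axis, 2 arrays per genotype) and within slide 2 (vertical axis, 1 array per genotype), Pax6-/- minus wild type in log2 units. Filled points passed the test over all 6 arrays, and the dotted line marks equal changes. Bcam lies at 1.88 and 1.93 and Itgb8 at -1.64 and -2.01.

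The remaining 22 members were not tested. Every probe of Itga1, Itga2, Itga8, Itga11, Itgb3, Lama2, Lama4, Lamb3, Lamc3, Itgb1bp2 and Itgbl1 was detected on 0 arrays. The same held for Itga2b, a platelet subunit, and for Itgal, Itgam, Itgax, Itgb2 and Itgb2l, subunits of leukocyte integrins, which brings the number to 17. Itga5, a fibronectin-receptor subunit, Itga7, Itgae and Itgb7 were detected on 1 array by their best probe. Itgb4, the hemidesmosome partner of Itga6, was detected on 1 Pax6-/- and 1 wild-type array, just short of the filter, whereas Itga4 and Itgb8 with 4 arrays passed it. Of 12 macrophage and leukocyte markers 0 were tested, with the pan-leukocyte marker Ptprc detected on 0 arrays.

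Further genes of adhesion and basement membrane were taken as lists. Of 22 basement membrane companions 11 were tested, of which limma called 0, with 4 at an unadjusted p under 0.05 and a median change of -0.01. For this list and those below, the shares over all tested genes were 3.28% called and 16.9% at an unadjusted p under 0.05. The largest sizes among the companions were those of Smoc1, a calcium-binding matrix protein (1.39, SE 0.53), and Fras1, which holds epidermis to dermis (-0.66, SE 0.37). Smoc1 was detected on 2 Pax6-/- arrays and 1 wild-type array, and Fras1 on 1 Pax6-/- array and 3 wild-type arrays. Both sizes thus rest in part on values that were not above background. The type IV collagen gene Col4a1 stood at 0.56 (SE 0.18), while Col4a2, its partner chain, stood at -0.04 (SE 0.31). Col18a1 stood at 0.65 (SE 0.18) and the peroxidasin gene Pxdn, whose product crosslinks type IV collagen, at -0.48 (SE 0.12). Of these last genes, all named after their values were seen, Col4a1, Col18a1 and Pxdn had no overlap between genotypes. The same held for 22.8% of all tested genes.

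Integrin ligands other than laminin included 3 called genes among 8 tested of 22, with 5 at an unadjusted p under 0.05. Those counts are too small to be read against the shares over all tested genes, 3.28% called and 16.9% at that unadjusted p. Tnc, which encodes tenascin-C, had a fitted change of -3.58 (SE 0.46, limma adjusted p = 0.00173). It was detected on 2 of 3 Pax6-/- arrays, and with the other array at its lowest detected signal it was 10.6-fold lower. That figure carries no array error, and over the alternatives the Tnc change ran from -4.19 to -2.36. Mfge8, an RGD-bearing bridge for alpha-v integrins, had 12.93, 13.14 and 13.05 in Pax6-/- and 13.55, 13.36 and 13.36 in wild type (-0.38, SE 0.08, limma adjusted p = 0.0204). The fibrillar collagen gene Col3a1 rose by 0.94 (SE 0.22, limma adjusted p = 0.0407). The median change of that list was -0.30.

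Of those calls that of Tnc held in all 16 alternatives that tested it. The Col3a1 call was lost in 12 of 17 alternatives. These were the leaving out of any single array (limma adjusted p 0.0764 to 0.136), slide 1 alone (0.256), the slide as a block (0.0590), the replicate block (0.0890), median scaling (0.0823), no detection filter (0.0712) and averaged probes (0.193). The Mfge8 call was lost in 6 of 17, without Pax6-/- array 1 or 3 or wild-type array 1 (limma adjusted p up to 0.0865), on slide 1 alone (0.164), with the replicate block (0.0599) and without an intensity trend (0.296).

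Col3a1 is also on the mesenchyme list of 12, where 9 genes were tested. Besides Col3a1, Alx4 was higher (0.99, SE 0.21) and Pdgfra was lower (-1.23, SE 0.15, limma adjusted p = 0.00144). The summed intensity of the 9 genes was 3392 to 3733 in Pax6-/- against 3000 to 3081 in wild type. Without Col3a1 it was 2944 to 3302 in Pax6-/- and 2783 to 2872 in wild type, and without Alx4 as well it was 1718 to 1856 in Pax6-/- and 1928 to 2263 in wild type. That last sum leaves out both genes called higher and keeps Pdgfra, which was called lower. Its direction thus depends on which genes were left out and does not measure mesenchyme. The part of mesenchyme in the Col3a1 change was not tested.

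Inside the cell, 22 of 30 cytoplasmic integrin adaptors were tested and only Actn1 passed, with 4 at an unadjusted p under 0.05 (median change -0.06). Actn1, which encodes an actin crosslinker of focal adhesions, had 8.42, 8.09 and 8.47 in Pax6-/- against 9.35, 9.33 and 9.19 in wild type. It fell by 0.96 (SE 0.19, limma adjusted p = 0.0189), but it did not pass in 7 of 17 alternatives: without any single array other than Pax6-/- array 3 (limma adjusted p up to 0.0749), on slide 1 alone (0.164) and with the replicate block (0.0543). Proteins that bind integrin tails had genes with varied, uncalled values, such as the talin genes Tln1 at 0.07 (SE 0.37) and Tln2 at 0.75 (SE 0.33). The kindlin genes Fermt1 and Fermt2 stood at 1.03 (SE 0.33) and -0.19 (SE 0.20). These talin and kindlin genes were named after their values were seen.

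No gene passed in 3 further lists. For 15 tested of 27 genes of the dystroglycan complex and its glycosylation limma called 0, with 0 at an unadjusted p under 0.05 and a median change of 0.11. Sntb2, a syntrophin, stood at 0.74 (SE 0.35) and Utrn, which encodes utrophin, at 0.72 (SE 0.43). For 7 tested of 10 hemidesmosome and tetraspanin genes limma called 0, with 1 at an unadjusted p under 0.05 and a median of -0.08. The hemidesmosomal linkers Plec and Dst stood at -0.53 (SE 0.13) and 0.44 (SE 0.25). For 13 tested of 18 matrix proteases and inhibitors limma called 0, with 2 at an unadjusted p under 0.05 and a median of -0.03, where the gelatinase gene Mmp2 stood at 0.91 (SE 0.39) and Adamts1 at -0.76 (SE 0.40).

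As checks on the arrays, 16242 to 17735 of 45281 probes were detected per array, and arrays of different genotypes correlated at 0.925 to 0.936 over genes, those of the same genotype at 0.947 to 0.954. Pax6 transcript had log2 intensities of 10.01, 10.14 and 10.23 in Pax6-/- and 11.30, 11.06 and 10.93 in wild type (change -0.97, SE 0.13, limma adjusted p = 0.00237). Probe positions relative to the mutation are not known here, so this does not check the genotype. The lens placode list of 10 had 6 lower and 0 higher genes among 8 tested, with a summed intensity of 1615 to 1824 in Pax6-/- and 3660 to 4501 in wild type. Pax6 itself is on that list, counts among the lower genes and is its brightest gene, so it makes up much of that sum. The other lower genes were Sox2, Prox1, Maf, Cryge and Crybb3. Of these, Maf, Cryge and Crybb3 were detected on 0 Pax6-/- arrays and on 3 wild-type arrays. Maf, Cryge and Crybb3 thus passed the filter only through wild type, and their Pax6-/- values in the sum were not above background. In the endothelium list of 10, Pecam1, Cdh5, Kdr, Tek and Tie1 were detected on 0 arrays. The 3 tested genes, Cldn5 (0.68, SE 0.36), Egfl7 (-0.25, SE 0.26) and Esam (-0.42, SE 0.58), did not pass, and their summed intensity was 339 to 583 in Pax6-/- and 379 to 557 in wild type. Of all calls, 46.2% were higher in Pax6-/-, against 26.1% with median scaling, which shifted the median change of all genes to -0.13 and that of the members to -0.29. With that scaling Bcam was at 1.76 and Itgb8 at -1.83, and both passed.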

How the data were processed

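Ectoderm of 3 embryos per genotype was laser-microdissected from 10 µm sections and the pooled RNA amplified in triplicate, per the labels' protocols. The deposited intensity of a probe is its average bead brightness, linear and without scaling across arrays. Per the file headers, each comes with a detection p-value, a count of beads and the standard error of the bead signal. GenomeStudio is named in the submitters' processing notes, and the sources used here do not give its version or background setting. A deposited table of normalised intensity served as an alternative only. Its columns share nearly equal medians and some of its values lie below 0, and its method is not given.

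Processing here used limma 3.58.1 under R 4.3.3: normexp background correction from the detection p-values (offset 16), quantile normalisation and log2. Of 45281 probes, 34885 had 1 gene symbol in the platform annotation, 18 several and 10378 none, and 34807 matched RefSeq (GRCm38.p6) by Entrez ID for current names. Probes detected at a p-value under 0.01 on at least 3 of 6 arrays were kept, and the brightest kept probe stood for its gene. Pax6-/- and wild type were compared with an intensity-trended moderated model (4 residual degrees of freedom per gene) and Benjamini-Hochberg adjustment over 9190 genes, all two-sided. The calculation was tested on simulated data. The number of arrays limits the precision, and medians of 44 or 45 beads underlie a probe's value.

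Members and lists were chosen with earlier results of these data known. The text names every member and, from each list of adhesion genes, up to 4 called genes by size of change, or the 2 largest where 0 were called. Marker lists are given as counts and summed levels, with the marker genes named there chosen after their values were seen. Where a genotype was not detected on every array, floored values put each array at no less than its lowest detected signal. Such values carry no array error. Alternatives left out each array, changed background, scaling, filter, moderation, slide or replicate block, value source or probe rule.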

Additional observations from a re-analysis of the deposited data

How the results depend on the processing

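Bcam was called higher in all 17 alternatives that gave a test, alone except when kept probes were averaged, where Itga6 passed too and the count was 2. The count of members called lower was 0 on slide 1 alone, with no detection filter and with detection required on all 6 arrays, which removes Itgb8 by construction. With 1 array left out it ranged from 0 to 1, members higher stayed at 1, and the members' median ran from -0.16 to -0.046. That median was -0.028 on slide 1 and -0.29 with median scaling, and the cause was not tested. Over all genes, 59 to 108 were higher and 86 to 124 lower with 1 array left out. The counts were 29 and 41 on slide 1 alone, 89 and 107 with no detection filter, 72 and 104 without an intensity trend, and 93 and 264 with median scaling. Replicate numbers did not pair the arrays: deviations of same-numbered arrays correlated at -0.026, -0.024 and -0.0019, and 0 of 6 arrays correlated best with their own number. The replicate block gave 81 higher and 101 lower genes, with Bcam at a limma adjusted p = 0.0041 and Itgb8 at 0.0458. Of 20 members not called, 7 changed sign under some alternative. On slide 2 these were Itga4 (0.24), Itgb1bp1 (0.24) and Lama1 (0.12), on slide 1 Itga3 (0.18), and with averaged probes Itgav (0.18). With 1 array left out, changes ran from -0.49 to 0.054 for Itga3, -0.37 to 0.10 for Itgb1bp1, -0.15 to 0.075 for Lama5 and -0.24 to 0.12 for Lamb2. Signals near the detection limit bound what can be said of Itgb8, Itga4 and Itga6.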
